A study of Mus musculus with 312 samples.

Results

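Notch signalling was described across single basal cells of the mouse mammary gland through 10 genes, which were chosen by name and role: the ligands Dll1, Jag1 and Jag2, the receptors Notch1, Notch2 and Notch3, the transcriptional targets Hes1, Hey1 and Heyl, and the inhibitor Numb. All 10 were among the 25136 genes used. The data comprised 312 FVB/NJ cells labelled as basal, captured on the Fluidigm C1, which isolates each cell in a separate chamber and makes cDNA from it. Of these, 237 came from adult and 75 from pregnant mice, and no cell had been treated or cultured. The titles of 112 adult cells carry the mark (2) and those of 125 do not, and the labels do not explain the mark. These are called the marked and the unmarked adult set below. The labels give no age in weeks, no day of pregnancy and no mouse. The study's account of the C1 experiment has adult glands at 10 weeks and pregnant glands at mid-pregnancy. It has total epithelium for pregnancy, so that only the labels give the pregnancy cells as basal.

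Notch receptors are membrane proteins that are activated by ligands on a neighbouring cell. Cleavage by Adam proteases and by the gamma-secretase complex then frees the receptor's intracellular part, which binds Rbpj in the nucleus and turns on genes such as Hes1, Hey1 and Heyl. In the mammary gland, basal cells are a known source of Notch ligands, and Notch activity is best known in the luminal cells that lie next to them.

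Cells below 50000 assigned reads or 1000 genes were left out, and there remained 81 marked adult cells, 58 unmarked adult cells and 71 pregnancy cells. Assigned reads per retained cell ranged from 51464 to 405910, with medians of 174910 in the marked set, 101320.5 in the unmarked set and 230645 in pregnancy. At least 6 of 11 core basal genes reached 100 CPM (reads per 1000000 assigned reads of the cell) in 93.8%, 87.9% and 98.6% of these cells. At least 3 of 7 pan-luminal genes reached it in 21.0%, 13.8% and 8.45% of them. Taken list by list, at most 3 cells of a set carried at least 3 genes of the endothelial, pericyte, fibroblast, immune or mature luminal list. In the unmarked set these were cells 130, 135 and 155 (mature luminal), 135 (endothelial) and 151, 155 and 157 (fibroblast). Since the labels name no mice, each title set counts as 1 sample, and no comparison below has a replicate check or a test. All intervals are 95% intervals for counting error only, and PCR copies of a molecule are counted separately. Pregnancy titles have a single form, so a difference of stage and a difference between captures cannot be told apart.

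The genes lie on mouse build GRCm38 (mm10). Among the ligands, Dll1 (Entrez 13388) is at chr17:15367354-15376932, Jag1 (16449) at chr2:137081451-137116520 and Jag2 (16450) at chr12:112907803-112929812. Among the receptors, Notch1 (18128) is at chr2:26457902-26503822, Notch2 (18129) at chr3:98013538-98150367 and Notch3 (18131) at chr17:32120820-32166896. Among the targets, Hes1 (15205) is at chr16:30065357-30067796, Hey1 (15213) at chr3:8663359-8667038 and Heyl (56198) at chr4:123233556-123249870, and the inhibitor Numb (18222) is at chr12:83794034-83921942.

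The 250 bases before the outermost annotated start are shown for Dll1, which alone of the 10 passed 2-fold between pregnancy and both adult sets, for Jag1, the ligand with the highest level, and for Notch2, the receptor with reads in the most cells. The sequences are from RefSeq on GRCm38.p6, and read 5′ to 3′ along the gene. The Dll1 window is chr17:15376933-15377182 and the Jag1 window chr2:137116521-137116770, both on the minus strand, and the Notch2 window is chr3:98013288-98013537 on the plus strand. Both strands were searched for TGGGAA, the core of the site that Rbpj binds, and CACNAG, the N box bound by Hes repressors, and matches are in capitals. The table held TGGGAA in 21.6% and CACNAG in 36.7% of its 32851 windows of this length. Neither the Dll1 nor the Jag1 window held a match, and the Notch2 window held 1 CACNAG on the opposite strand, with no overlap between motifs.
Dll1: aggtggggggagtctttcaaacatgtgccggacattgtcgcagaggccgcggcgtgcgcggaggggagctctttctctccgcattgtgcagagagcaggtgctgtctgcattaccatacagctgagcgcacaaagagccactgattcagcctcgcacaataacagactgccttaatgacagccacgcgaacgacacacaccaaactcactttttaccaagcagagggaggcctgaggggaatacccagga
Jag1: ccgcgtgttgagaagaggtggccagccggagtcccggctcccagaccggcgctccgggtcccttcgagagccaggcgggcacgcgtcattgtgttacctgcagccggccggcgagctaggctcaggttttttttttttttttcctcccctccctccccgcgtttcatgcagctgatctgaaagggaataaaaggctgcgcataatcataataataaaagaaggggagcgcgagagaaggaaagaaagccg
Notch2: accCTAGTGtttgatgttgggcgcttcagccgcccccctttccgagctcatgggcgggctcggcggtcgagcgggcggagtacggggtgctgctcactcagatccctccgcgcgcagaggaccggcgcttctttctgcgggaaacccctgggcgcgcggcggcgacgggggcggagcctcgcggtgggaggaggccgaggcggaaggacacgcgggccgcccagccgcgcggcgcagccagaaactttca

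The ligand Dll1, which presents to Notch receptors on neighbouring cells, was higher in pregnancy cells than in either adult set. In the 71 pregnancy cells Dll1 ranged from 5.46 to 2226 CPM with a median of 149 CPM, so that every retained pregnancy cell held at least 1 Dll1 read. In the marked adult cells it ranged from 0 to 4097 CPM with a median of 4.33 CPM, and in the unmarked adult cells from 0 to 979 CPM with a median of 8.19 CPM. The ranges overlapped, but the lower quartile in pregnancy, 67.1 CPM, lay above the upper quartile of both adult sets, 32.1 and 65.9 CPM. Mean Dll1 was 97.6 CPM in the marked set, 97.9 CPM in the unmarked set and 300.3 CPM in pregnancy, which gave a log2 ratio of mean CPM + 10 of 1.53 for pregnancy over all adult cells. Taken set by set, it was 1.53 (over marked cells) and 1.52 (over unmarked cells), while the adult sets differed from each other by 0.00.

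The equal adult means came about differently. Marked cell 33 held 4097 CPM of Dll1, which was 51.8% of the summed CPM of its set, and the marked mean without it was 47.7 CPM. In the unmarked set the 28 cells with under 100000 assigned reads had a mean of 170.4 CPM of Dll1 and the 30 deeper cells a mean of 30.4 CPM. With at least 100000 reads and 1500 genes per cell, Dll1 had a log2 ratio of 1.38 over the marked and 2.94 over the unmarked cells. When cells down to 10000 reads and 500 genes were admitted, an alternative added after seeing the data, it was 1.71 and 0.79, so that Dll1 no longer passed 2-fold against both sets.

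For every gene, a ratio counted as higher or lower in pregnancy when it passed 2-fold against both adult sets. Among 8412 genes with an average of at least 10 CPM over the set means, 8.75% were higher and 5.18% lower by this rule, and 308 (3.66%) had a smaller ratio at least as large as that of Dll1. Of the 10 Notch genes, 8 reached the average and Hey1 and Heyl did not. Dll1 alone was higher and none was lower, with 4 of the 8 ratios above 0 and 4 below it. The median ratio of the 8 was −0.19, beside −0.03 over all 8412 genes. Between the adult sets, 33.1% of the genes differed by 2-fold or more, and so did Jag2 and Notch3.

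**Figure D1:**
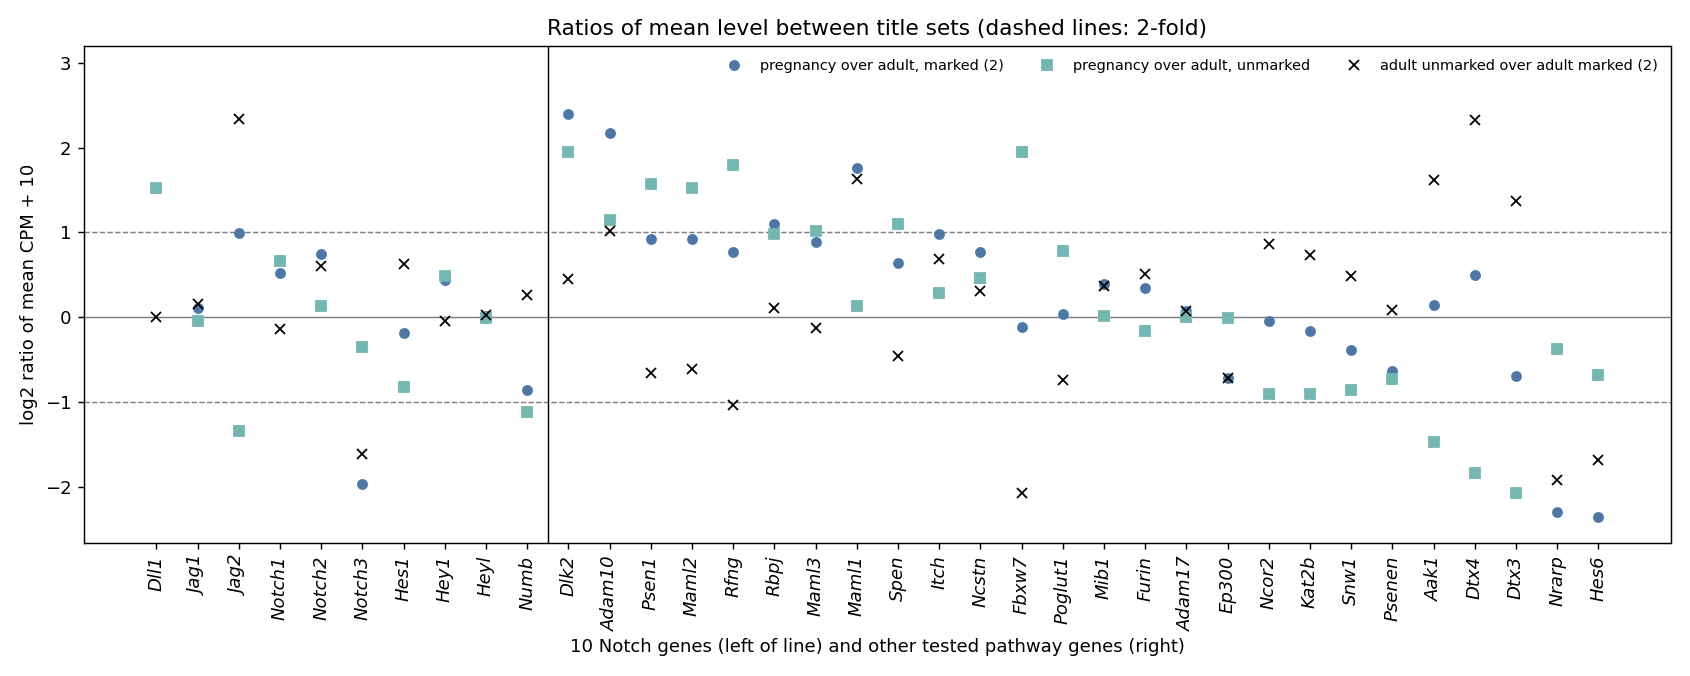
Log2 ratio of mean CPM + 10 between title sets for the 10 Notch genes, left of the vertical line, and for the other pathway genes that reached an average of 10 CPM, right of it. Circles and squares are pregnancy over the marked and the unmarked adult set (they coincide for Dll1 at 1.53 and 1.52), crosses are unmarked over marked adult cells, and dashed lines mark 2-fold; Jag2 and Notch3 differ by more than 2-fold between the adult sets.

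Jag1, the other ligand present in most cells, had similar means at both stages. It ranged from 0 to 5047 CPM with a median of 258 CPM in the marked set, from 0 to 5567 CPM with a median of 545 CPM in the unmarked set, and from 0 to 6562 CPM with a median of 477 CPM in pregnancy. Mean Jag1 was 753, 840 and 815 CPM, and the log2 ratio of pregnancy was 0.11 (over marked cells) and −0.04 (over unmarked cells). The 3 distributions overlapped over nearly their whole range, and the marked median was the lowest. On the mean of log2 values the log2 ratio of Jag1 was 1.15 over marked and 0.54 over unmarked cells, and 0.90 over all adult cells beside 0.05 on means.

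Jag2, the third ligand, had reads in few cells, and its median was 0 CPM in every set. Its highest values were 332 CPM in the marked set, 4451 CPM in the unmarked set and 617 CPM in pregnancy. Unmarked cell 169 alone held 89.5% of the Jag2 of its set, marked cell 65 held 45.7% and pregnancy cell 33 held 31.3%. Mean Jag2 was 8.96, 85.8 and 27.8 CPM, and the log2 ratio of pregnancy was 0.99 (over marked cells) and −1.34 (over unmarked cells). Without the highest cell of each set these ratios were 0.98 and 0.61.

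The single cell with most Jag2 departed from the basal profile. In unmarked cell 169 only 2 of the core basal genes reached 100 CPM, Krt14 was at 9.66 CPM and Acta2 at 280 CPM. The endothelial receptor kinase Tek was at 956 CPM and the endothelial adhesion molecule Esam at 985 CPM there, whereas the 6 other endothelial genes listed (Pecam1, Cdh5, Kdr, Emcn, Cldn5 and Vwf) had no read. With 2 of 8 genes the cell was under the limit of 3 for that list. The same cell held 705 CPM of Notch4, a receptor known from endothelium, which was 98.3% of the Notch4 of its set, and all 4 Dll4 reads of that set.

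**Figure D2:**
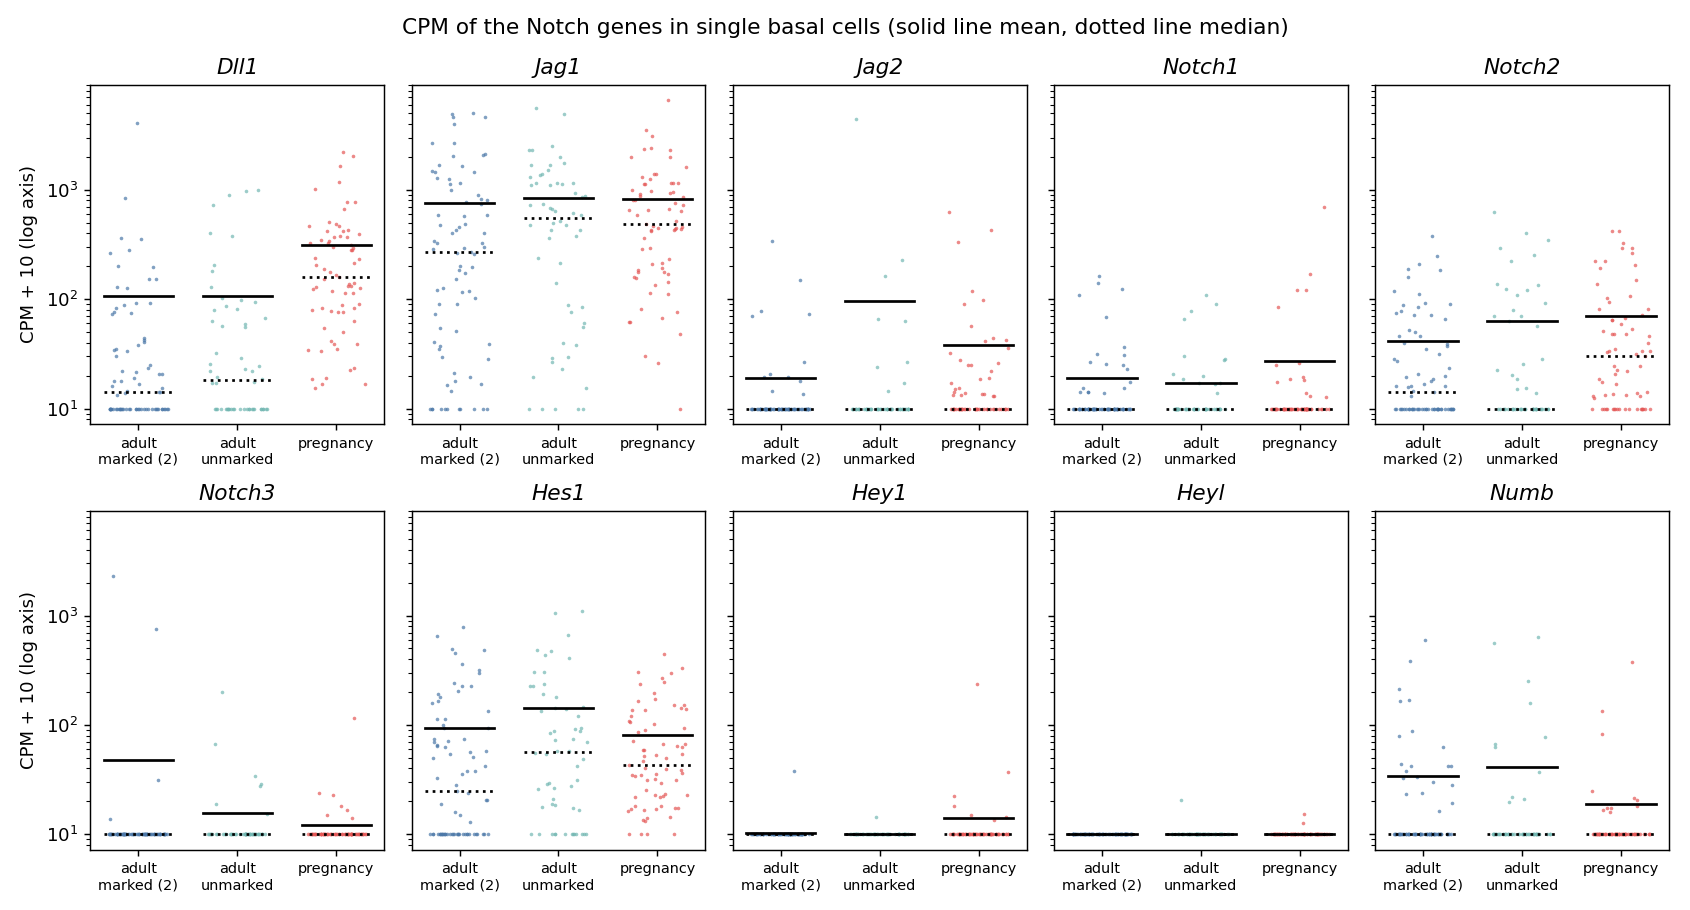
CPM + 10 of each Notch gene in each retained cell, on a log axis, by title set, with the mean as a solid and the median as a dotted line, both plus 10. Dll1 is displaced upwards in pregnancy, Jag1 spreads over much the same range in all sets, Hes1 reaches 437 CPM in pregnancy beside 778 and 1094 CPM in the adult sets, and the means of Jag2 in the unmarked set and of Notch3 in the marked set rest on cells at 4451 and 2284 CPM.

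Among the receptors, Notch2 had reads in the most cells. It ranged from 0 to 372 CPM in the marked set, from 0 to 619 CPM in the unmarked set and from 0 to 413 CPM in pregnancy, with medians of 4.08, 0 and 20.5 CPM. Mean Notch2 was 31.9, 53.8 and 60.1 CPM, and its log2 ratio was 0.74 (over marked cells) and 0.14 (over unmarked cells), with the marked set lowest. Taken on medians plus 10 CPM, an alternative added after seeing the data, the Notch2 ratio was 1.11 and 1.61.

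Notch1 had a median of 0 CPM in every set, with highest values of 153, 98.4 and 679 CPM in the marked, unmarked and pregnancy cells. Mean Notch1 was 8.90, 7.15 and 17.1 CPM, a log2 ratio of 0.52 and 0.66 against the adult sets. Pregnancy cell 8 held 56.0% of the Notch1 of its set, and without the highest cell of each set the ratios were 0.04 and 0.18. Pregnancy cell 8 had basal genes (Krt14 at 1694 CPM and Acta2 at 29922 CPM).

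Notch3, a receptor known from pericytes and vascular smooth muscle, was carried by single cells. Its median was 0 CPM in every set, and its highest values were 2284, 192 and 107 CPM. Marked cell 104 held 74.9% of the Notch3 of its set, unmarked cell 173 held 59.3% and pregnancy cell 63 held 67.7%. Mean Notch3 was 37.7, 5.58 and 2.22 CPM, and the log2 ratio of pregnancy was −1.96 (over marked cells) and −0.35 (over unmarked cells). Without the highest cell of each set these were −0.87 and −0.20.

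Marked cell 104 also carried some pericyte genes, with 3 of the 8 listed at 100 CPM or more and 4 without a read. Pdgfrb, the receptor that marks pericytes, was at 4641 CPM, Mcam at 4342 CPM and Des at 359 CPM, whereas Rgs5, Cspg4, Kcnj8 and Higd1b had no read. Of the 11 core basal genes, 5 reached 100 CPM, and Cnn1 and Trp63 had no read. The basal keratin Krt14 was at 83.7 CPM. The contractile genes Acta2, at 3791 CPM, and Mylk, at 15477 CPM, which pericytes share with basal cells, were also present. This cell held 3205 CPM of Nrarp, a Notch target that feeds back on the receptor, which was 99.6% of the Nrarp of its set, and 4641 CPM of Jag1. Pdgfrb and Jag1 had 388 reads each in it. Other marked cells held Notch3 or pericyte genes apart. Cell 7 had the next highest Notch3, 740 CPM or 24.3% of the set, with none of the 8 pericyte genes at 100 CPM and 4 of the 11 core basal genes. Cell 102 had 6 pericyte genes and 8 core basal genes at that level and 21.7 CPM of Notch3.

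Marked cells 7, 102 and 104 and unmarked cell 169 were absent when the comparison was limited to basal-only cells. These had at least 6 core basal genes at 100 CPM. They also had fewer than 3 genes at that level of each of the endothelial, pericyte, fibroblast, immune, luminal progenitor and mature luminal lists. The pan-luminal list was not applied, so basal-only cells can hold pan-luminal genes. The limit left 75 marked, 48 unmarked and 67 pregnancy cells. Jag2 then had a log2 ratio of 0.75 over the marked and 0.67 over the unmarked cells. In the same order, the ratios were 0.29 and −0.24 for Notch3, 0.93 and 0.50 for Notch2, and 1.47 and 1.34 for Dll1. Mean level per length among adult cells was then 2.51 CPM per kilobase for Jag2, beside 10.1 in all retained adult cells, and 0.224 for Notch3, beside 3.06.

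Hes1, a transcriptional repressor and the best known Notch target, was present in many cells of every set. It ranged from 0 to 778 CPM with a median of 14.8 CPM in the marked set, from 0 to 1094 CPM with a median of 46.6 CPM in the unmarked set, and from 0 to 437 CPM with a median of 33.4 CPM in pregnancy. Mean Hes1 was 83.1, 134 and 71.6 CPM, and its log2 ratio was −0.19 (over marked cells) and −0.82 (over unmarked cells). Neither passed 2-fold, and on medians the ratio was above 0 against the marked set (0.81) and below 0 against the unmarked set (−0.38).

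The related repressors Hey1 and Heyl were close to the limit of detection. Hey1 had 5 reads in the marked set, all in cell 18, 1 read in the unmarked set, in cell 157, and 80 reads in pregnancy, of which 69 were in cell 30. That cell held 78.9% of the Hey1 of its set and had basal genes (Krt14 at 5692 CPM). It was also among the 6 pregnancy cells with at least 3 of 7 pan-luminal genes at 100 CPM. Unmarked cell 157 had at least 3 of 8 fibroblast genes at 100 CPM and no core basal gene at that level (Acta2 at 54.5 CPM, Krt14 at 9.08 CPM). Heyl had no read in the marked set, 1 in the unmarked set, in cell 234, and 2 in pregnancy, in cell 38 and in 1 other cell. These counts allow no fold change between the stages.

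Numb, which opposes Notch by sending the receptor to endocytosis, was lower on average in pregnancy without reaching 2-fold against both sets. Its median was 0 CPM in every set and its highest values were 591, 632 and 369 CPM in the marked, unmarked and pregnancy cells. Mean Numb was 24.3, 31.2 and 8.99 CPM, a log2 ratio of −0.85 and −1.12. Marked cell 16 held 30.0%, unmarked cell 194 held 35.0% and pregnancy cell 16 held 57.7% of the Numb of their sets. Without the highest cell of each set the ratios were −0.97 and −1.14.

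To compare genes with each other, CPM was divided by exon length in kilobases. Among adult cells, mean level per length was 144 CPM per kilobase for Jag1, 72.0 for Hes1, 28.5 for Dll1, 13.8 for Numb, 10.1 for Jag2, 3.90 for Notch2, 3.06 for Notch3, 0.861 for Notch1, 0.106 for Hey1 and 0.0166 for Heyl. Among pregnancy cells, mean level per length was 148 CPM per kilobase for Jag1, 87.6 for Dll1, 49.3 for Hes1, 6.85 for Jag2, 5.72 for Notch2, 4.58 for Numb, 1.85 for Hey1, 1.80 for Notch1, 0.279 for Notch3 and 0.0256 for Heyl. Jag1 thus led at both stages, and Dll1 and Hes1 held the next places in opposite order. Neighbours in these orders overlapped in their spread over cells: in pregnancy the quartiles of the level per length were 31.1 and 192 for Jag1, 19.6 and 105 for Dll1, and 8.52 and 67.6 for Hes1. Only Jag1, Hes1 and Dll1 had a median above 0 among adult cells (67.5, 19.2 and 1.80 CPM per kilobase), and Notch2 joined them in pregnancy (86.8 for Jag1, 43.4 for Dll1, 23.1 for Hes1 and 1.95 for Notch2).

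The level of Dll1 per length exceeded that of Jag1 in 25 of 71 pregnancy cells (35.2%, exact interval 24.2 to 47.5%). It did so in 15 of 81 marked cells (18.5%, 10.8 to 28.7%) and in 8 of 58 unmarked cells (13.8%, 6.15 to 25.4%). The interval for pregnancy overlapped that of either adult set. Summed over the 3 ligands, mean level per length was 182 CPM per kilobase in adult and 243 in pregnancy cells, whereas the 3 receptors summed to 7.82 and 7.80. The receptor sum was not alike on other scales: its median was 0.762 CPM per kilobase in adult and 2.27 in pregnancy cells, and in basal-only cells its mean was 3.89 and 8.00. Marked cell 104 held 67.7% of the Notch3 of all adult cells.

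The share of cells with a gene was compared after each cell had been thinned at random to 50000 reads. Dll1 was then detected in 62 of 71 pregnancy cells (87.3%, exact interval 77.3 to 94.0%), in 31 of 81 marked cells (38.3%, 27.7 to 49.7%) and in 27 of 58 unmarked cells (46.6%, 33.3 to 60.1%). Without thinning, Dll1 had a read in 100.0%, 54.3% and 55.2% of these cells. At 100 CPM or more, Dll1 was found in 66.2% of pregnancy, 14.8% of marked and 15.5% of unmarked cells. The share in pregnancy lay above both adult intervals at equal depth.

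Jag1 was detected at equal depth in 97.2% of pregnancy, 80.2% of marked and 86.2% of unmarked cells. Notch2 was detected in 56.3% of pregnancy cells (44.0 to 68.1%), 39.5% of marked cells (28.8 to 51.0%) and 36.2% of unmarked cells (24.0 to 49.9%), with overlapping intervals. Hes1 was detected in 78.9% of pregnancy, 49.4% of marked and 72.4% of unmarked cells, so that the adult sets differed more from each other than the unmarked set did from pregnancy. Jag2 was detected in 25.4%, 11.1% and 12.1% of the pregnancy, marked and unmarked cells, Notch1 in 11.3%, 12.3% and 12.1%, Notch3 in 5.63%, 3.70% and 10.3%, and Numb in 9.86%, 23.5% and 17.2%. Hey1 was detected in 4 of 71 pregnancy cells, 1 of 81 marked cells and 0 of 58 unmarked cells, for which a count of 0 puts the limit at 5.17%. Heyl was detected in 1 unmarked cell, in 0 of 81 marked cells (limit 3.70%) and in 0 of 71 pregnancy cells (limit 4.23%).

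Pregnancy cells had more genes of any kind at equal depth, a median of 3211 after thinning beside 2312 in the marked and 2193 in the unmarked set. Of all 8412 genes above the average of 10 CPM, 65.7% were detected in a higher share of pregnancy cells than of both adult sets, and 13.9% in a lower share. Among the 8 Notch genes above that average, 5 were higher (Dll1, Jag1, Jag2, Notch2 and Hes1) and 2 lower (Notch1 and Numb), which is near this background. The order of Notch1 did not hold in basal-only cells, where it was detected in 11.9% of pregnancy, 9.33% of marked and 4.17% of unmarked cells. Dll1 exceeded the nearer adult set by 40.8 percentage points, a difference reached by 93 of the 8412 genes (1.11%).

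**Figure D3:**
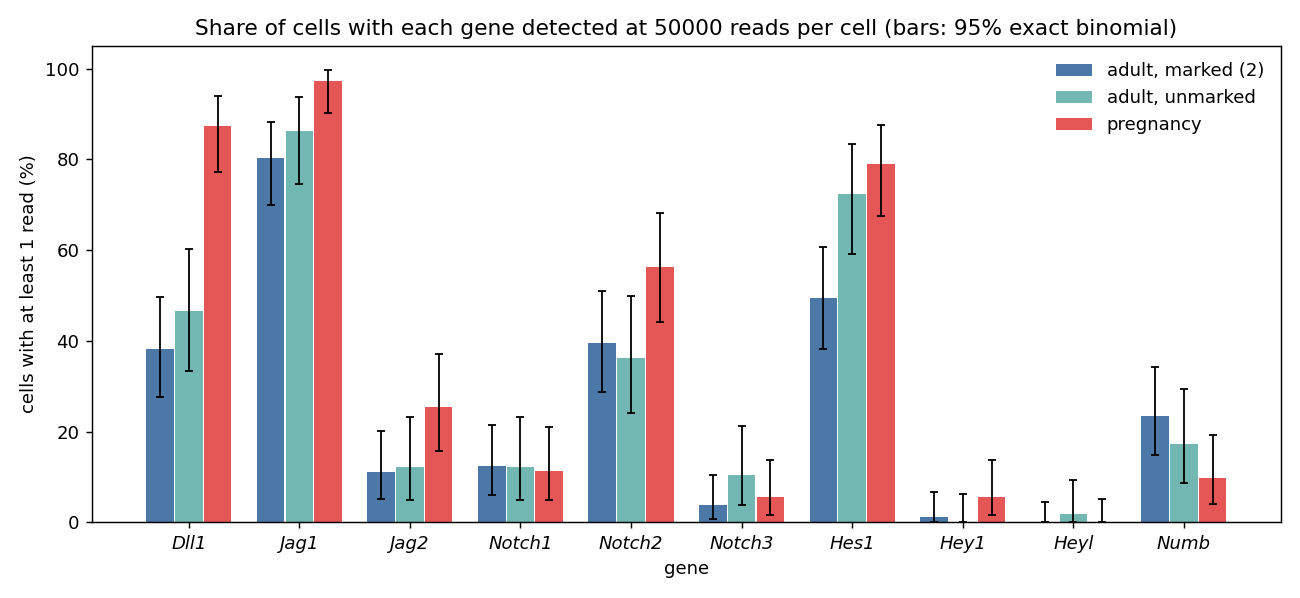
Share of cells with at least 1 read of each Notch gene after thinning to 50000 reads per cell, by title set, with exact 95% binomial intervals. Dll1 stands at 87.3% in pregnancy beside 38.3% and 46.6% in the adult sets, and Hey1 and Heyl are near 0 in all of them.

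Within a cell, the median number of the 10 Notch genes detected at equal depth was 2 in the marked set, 3 in the unmarked set and 4 in pregnancy, with ranges of 0 to 6, 0 to 7 and 1 to 7. At least 1 ligand was detected in 90.1% of marked, 89.7% of unmarked and 100.0% of pregnancy cells, and at least 2 ligands in 37.0%, 50.0% and 88.7%. At least 1 receptor was detected in 48.1%, 43.1% and 60.6% of the same cells. A ligand and a receptor were detected together in 42.0% of marked cells (31.1 to 53.5%), 41.4% of unmarked cells (28.6 to 55.1%) and 60.6% of pregnancy cells (48.3 to 72.0%), with overlapping intervals. Every pregnancy cell had a ligand at this depth, so a receptor without a ligand could not occur there (0 of 71 cells). The number of Notch genes in a cell moved with the number of all genes in it, with Spearman's rho of 0.55 over 81 marked, 0.49 over 58 unmarked and 0.32 over 71 pregnancy cells, and the part of this in the difference between stages was not tested.

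**Figure D4:**
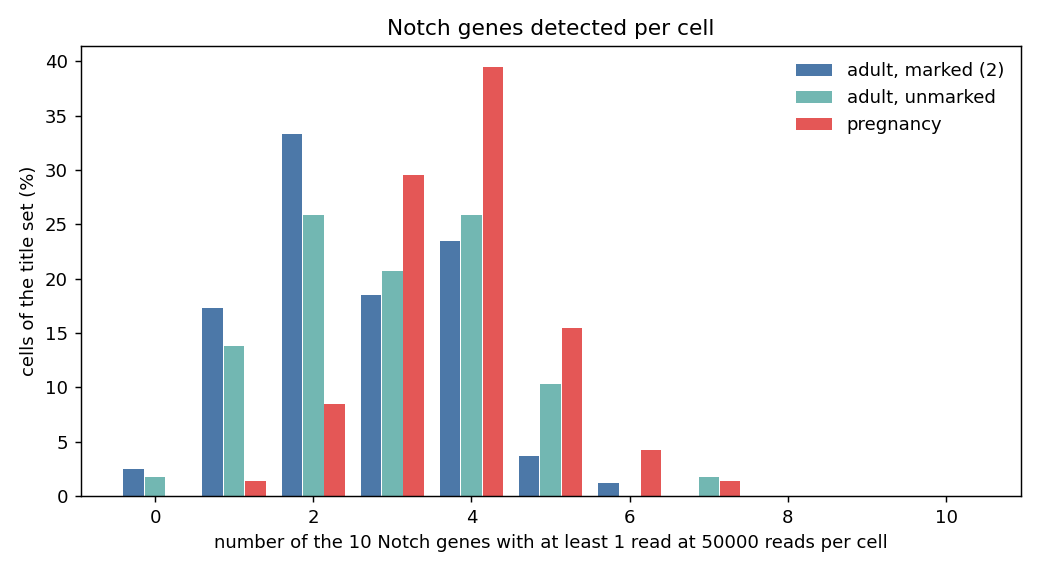
Percentage of the cells of each title set by the number of Notch genes, of 10, with at least 1 read after thinning to 50000 reads. The median is 2 in marked adult, 3 in unmarked adult and 4 in pregnancy cells, and the distributions overlap.

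The signal-receiving side was also compared within cells. Hes1 was detected at equal depth without any of the 3 receptors in 42 of 139 adult cells (30.2%, 22.7 to 38.6%) and in 19 of 71 pregnancy cells (26.8%, 16.9 to 38.6%). At this depth a receptor with few reads can be missed. In pregnancy, Hes1 was detected in 85.0% of the cells with Notch2 and in 71.0% of those without it. The same shares were 59.4% and 42.9% in the marked set, and 71.4% and 73.0% in the unmarked set.

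Across cells of a set, levels of the Notch genes were nearly unrelated. The median Spearman's rho of CPM was 0.09 in the unmarked set and 0.04 in pregnancy over 45 pairs, and 0.02 in the marked set over 36 pairs, since the 9 pairs with Heyl have no rho where Heyl has no read. This describes sparse counts of cells that share depth and capture run. Dll1 and Jag1 had a rho of −0.04, 0.18 and 0.18 over 81, 58 and 71 cells, and Notch2 and Hes1 0.26, 0.15 and 0.10. Only 1 pair a set passed 0.3, a different one in each, and all 3 involved Notch1 or Notch3, which were detected in few cells.

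The genes most like each of the 4 Notch genes detected in at least 25% of both marked and pregnancy cells were sought among 2966 genes, by the mean of the rho over 81 marked and that over 71 pregnancy cells. For Dll1 these were Irf1, an interferon-regulated transcription factor (0.22 in marked and 0.52 in pregnancy cells), and Camk4, a calcium-dependent kinase (0.39 and 0.23). For Jag1 only Tax1bp1 reached a mean of 0.3 (0.29 and 0.34). Zbtb1 (0.33 and 0.37) and the kinase Cdk12 (0.27 and 0.42) were nearest to Notch2, and Nfyb (0.34 and 0.35) and Coq10b (0.32 and 0.33) to Hes1. These values describe the cells at hand and are the highest of many weak ones.

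Of 47 other genes of the pathway, 26 reached the average of 10 CPM, 2 were at least 2-fold higher in pregnancy against both sets and none was lower, beside 8.75% and 5.18% of all genes. Their median log2 ratio was 0.27. Dlk2, a ligand-like membrane protein without the usual receptor-binding domain, had a mean of 4.49 CPM in the marked set, 9.84 CPM in the unmarked set and 66.4 CPM in pregnancy, but pregnancy cell 69 held 46.5% of the latter. It was detected in 12.7% of pregnancy cells, beside 4.94% and 13.8% in the adult sets. Adam10, a protease that cuts activated Notch, had means of 4.62, 19.6 and 55.7 CPM, and pregnancy cell 24 held 77.3% of the last, which was 12.8 CPM without it.

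Rbpj, the DNA-binding partner of Notch, was spread over more cells. Mean Rbpj was 29.0 CPM in the marked set, 32.2 CPM in the unmarked set and 73.3 CPM in pregnancy, and its log2 ratios were 1.10 and 0.98, the second just under 2-fold. Its medians were 10.6, 4.73 and 11.9 CPM, and it was detected at equal depth in 43.2%, 39.7% and 59.2% of cells, so that the higher mean in pregnancy rested on its upper cells, with a highest value of 1076 CPM. Apart from unmarked cell 169, Notch4 and Dll4 were almost without reads: Notch4 had 0 reads in the marked set and 2 in pregnancy, and Dll4 had 1 and 0.

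Other features of the cells also differed between the title sets, though not all of them by stage. The summed level of 8 fibroblast genes had a median of 561 CPM in pregnancy, from 55.2 to 5782 CPM, beside 4.22 CPM for marked and 28.8 CPM for unmarked adult cells, which ranged from 0 to 3262 and from 0 to 39480 CPM. All 8 had reads in pregnancy, and 3 pregnancy cells held at least 3 of them at 100 CPM. The median share of mitochondrial reads was 18.4% in pregnancy, 9.65% in the marked and 15.6% in the unmarked set. The part of these features in the differences above was not tested. At least 3 of 14 proliferation genes reached 100 CPM in 2.47% of marked, 3.45% of unmarked and 32.4% of pregnancy cells. Within pregnancy, the rho of Dll1 with the summed level of the 14 proliferation genes was 0.06 over 71 cells. The summed mean of 13 immediate early genes, which respond to cell handling, was 13488, 10545 and 11989 CPM, and the rho of Dll1 with the list within pregnancy was 0.11 and that of Jag1 0.38. In the unmarked set, Dll1 had a rho of −0.38 with assigned reads over 58 cells, beside 0.05 in the marked set and −0.03 in pregnancy. The part of depth in the Dll1 difference was not tested beyond the depth limits given above.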

How the data were processed

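The values used were the counts that the authors deposited, unnormalized whole numbers of read pairs for each cell and Entrez gene. The submitters' processing notes and the study's methods name mm10 as the genome, Subread 1.5.0 as the aligner and featureCounts as the counter, with the RefSeq genes supplied with that software. Use of strand is not given in the sources used here, and there were no molecular identifiers, so overlapping or antisense genes and PCR copies are not told apart. The deposited exon lengths were used for levels per length.

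Of 27179 gene IDs, 25275 matched a symbol in RefSeq on GRCm38, and the 1904 others held 1.66% of reads. After removal of those, 15 mitochondrial and 124 ribosomal protein genes, 25136 genes remained. Cells needed 50000 assigned reads and 1000 genes. No doublet caller was run. Detection means at least 1 read after 1 random thinning to 50000 reads. Ratios are log2 of mean CPM with a pseudocount of 10, which understates changes of low genes. Groups came from titles and age labels. Each title set was 1 sample, so no test was run, and a 2-fold rule of size against both adult sets was used instead. Shares carry exact Clopper-Pearson 95% intervals, and a share of 0 carries the limit of 3 counts. The ratio rule was tested on simulated counts, in which both adult sets had the same expected levels. The thinning was checked on the deposited counts of a single retained cell.

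The 10 genes, the 47 other pathway genes and the marker lists were chosen with earlier results of these data known. Other pathway genes were named where they had at least 50 CPM in adult or pregnancy cells and passed 2-fold against both sets, and Rbpj, Notch4 and Dll4 were named besides. A cell was named where it held over 25% of a gene's summed CPM in its set, and marked cells 7 and 102, Nrarp, Tek, Esam, Pdgfrb and the other genes given for such cells were chosen after their values were seen. Alternatives used edgeR 4.0.16 (TMM), DESeq2 1.42.0 (median of ratios), other pseudocounts, filters and detection limits. Analysis used Python 3.11.15, numpy 2.4.6, pandas 2.3.3, scipy 1.17.1 and R 4.3.3.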

Additional observations from a re-analysis of the deposited data

Results flagged for a closer look

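Cells that failed the filter on depth take part in no comparison, yet they held reads of the Notch genes above the limit that a count of 0 allows. The 98 adult cells left out held 1490 reads of the 10 genes, or 1272 per 1000000 assigned reads, where a count of 0 would allow 2.56 per 1000000. By gene, they held 553 reads per 1000000 of Jag1, 316 of Hes1, 227 of Dll1, 128 of Notch2, 17.9 of Jag2, 14.5 of Notch1 and 11.1 of Numb. The retained adult cells held 778 reads per 1000000 of Jag1, 101 of Hes1, 84.6 of Dll1 and 40.2 of Notch2, so that Hes1, Dll1 and Notch2 took a larger part of the reads in the shallow adult cells. The 4 pregnancy cells left out held 983 reads per 1000000 of the 10 genes, with 566 of Jag1 and 246 of Dll1, where a count of 0 would allow 32.0. The retained pregnancy cells held 756 reads per 1000000 of Jag1 and 298 of Dll1.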

How the results depend on the processing

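Dll1 stayed above both adult sets in all 13 alternatives, with a log2 ratio over all adult cells between 1.02 (pseudocount of 100 CPM) and 3.29 (medians over cells). The alternative without a minimum mean is among the 13 and could not change the ratio of any gene. The number of Notch genes at least 2-fold higher was 1, Dll1, except with cells down to 10000 reads and 500 genes (0) and on medians over cells (2, Dll1 and Notch2), both added after seeing the data. The number at least 2-fold lower was 0, except with a pseudocount of 1 CPM (2, Notch3 and Numb). Notch2 kept its sign over all adult cells in 13 alternatives, and the sign changed, or the ratio was 0, in 4 for Jag1, 5 for Jag2, 2 each for Notch1, Notch3 and Hes1, and 1 for Numb. On the mean of log2 values the ratio over all adult cells was 2.53 for Dll1, 0.90 for Jag1, 0.38 for Jag2, −0.09 for Notch3, 0.19 for Hes1 and −0.36 for Numb. The causes were not tested.

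The share of cells with a ligand and a receptor was 41.7% in adult and 60.6% in pregnancy cells. It was 28.8% and 45.1% after thinning to 20000 reads, 55.4% and 78.9% without thinning, 10.8% and 22.5% at 100 CPM, and 23.0% and 29.6% with at least 3 reads. The median number of Notch genes per cell was 3 in adult and 4 in pregnancy cells, and it was 3 and 5 without thinning and 1 and 2 at 100 CPM. A second thinning gave Dll1 in 95.8% of pregnancy cells, and the mean over all possible thinnings was 91.6%, beside 41.9% in adult cells. These were added after seeing the data. Pairs with a rho above 0.3 numbered 1 in each set. With at least 100000 reads and 1500 genes they numbered 0 in the marked and 5 in the unmarked set, and in basal-only cells 0 and 2. Of the counts, medians and shares that summarise a comparison, 18 moved and 42 did not. Of the values of single genes, 128 moved beyond their counting interval and 202 did not. These 202 include the ratios without a minimum mean, which could not move.

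No paired analysis was possible because the title numbers name single cells and no result comes from a test. With 1 sample per title set, variation between mice is not measured, and genes with a few reads per cell are missed at this depth.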
